A study of Mus musculus with 12 samples.

Results

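The antigen processing and major histocompatibility complex (MHC) genes described here are H2-K1, H2-D1, B2m, Tap1, Tap2, Tapbp, Psmb8, Psmb9, Nlrc5 and Cd74. They were chosen by name, and they are 10 of the 18193 genes with at least 1 probe set paired with that gene alone. Expression was measured on Affymetrix mouse arrays with 45101 probe sets in 8 medulloblastomas (MBs), in 2 samples of cerebellar granule neural progenitors (GNPs), the cells from which granule neurons form, and in 2 samples of whole cerebellum (WC). Each sample came from a mouse of its own, whose number is in its name (CGNP_2698 and CGNP_2705 are the GNPs, WC_2646 and WC_2647 the cerebella). The MBs arose in Nestin-Cre p53-/- animals with Xrcc4 c/- (MB_630, MB_794, MB_1187, MB_1197, MB_1207 and MB_1224) or Xrcc4 c/c (MB_706 and MB_1206), in which Cre driven in neural progenitors removes the end-joining factor XRCC4. GNPs and cerebellum are described as coming from healthy tissue of animals matched for age and genotype, whose ages and alleles are not given in the sources used here. The labels call the MBs tumor tissue, whereas the paper also speaks of medulloblastoma cells and lists 6 of these tumors among its cultures, and which of these the RNA came from was not settled.

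MHC class I molecules display peptides of the cell's own proteins to cytotoxic T cells. The proteasome cuts the proteins, the TAP transporter carries the peptides into the endoplasmic reticulum, and tapasin helps to load them onto a class I heavy chain bound to beta-2-microglobulin. Interferon raises most of these genes and exchanges catalytic subunits of the proteasome for those of the immunoproteasome. MHC class II molecules, which need the invariant chain CD74, are made mainly by professional antigen presenting cells, and in the brain mainly by microglia and macrophages. Neurons are known for low class I levels.

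The stretches upstream of the class I heavy chain genes, of B2m and between Tap1 and Psmb9 are shown because they carry the promoter elements that these genes are known to share. They are RefSeq sequences of the build GRCm38.p6, written 5′ to 3′ on the strand of the gene (that of Tap1 for the shared interval). Capitals mark every match, on either strand, to TGACG (the core of the X2 element), CCAAT (the Y box), GAANNGAAA (an interferon response type) or GGGNNTTCC (a κB type), and no 2 matches overlap. The H2-K1 and H2-D1 stretches begin 5 bases before the κB type match, and that of B2m is set on its X2 core. They lie at chr17:34000354-34000463 on the minus strand (H2-K1), chr17:35262918-35263027 on the plus strand (H2-D1), chr2:122147534-122147643 on the plus strand (B2m) and chr17:34187331-34187555 on the plus strand (the interval from the Psmb9 start on the left to the Tap1 start on the right). Those of H2-D1 and B2m lie before the annotated gene, and that of H2-K1 lies before the start site used but inside the annotated gene.
H2-K1: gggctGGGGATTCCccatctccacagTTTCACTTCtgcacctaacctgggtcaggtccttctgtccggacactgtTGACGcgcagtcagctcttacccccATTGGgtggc
H2-D1: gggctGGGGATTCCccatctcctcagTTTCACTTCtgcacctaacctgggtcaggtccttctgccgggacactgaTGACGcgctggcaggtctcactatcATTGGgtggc
B2m: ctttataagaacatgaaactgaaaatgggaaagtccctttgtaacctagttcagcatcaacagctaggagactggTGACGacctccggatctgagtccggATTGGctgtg
Tap1 and Psmb9: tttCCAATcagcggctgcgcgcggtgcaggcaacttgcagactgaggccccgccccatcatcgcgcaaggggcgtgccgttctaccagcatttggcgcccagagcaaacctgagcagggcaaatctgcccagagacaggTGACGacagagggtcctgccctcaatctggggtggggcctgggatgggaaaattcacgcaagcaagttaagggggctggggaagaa

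The H2-K1 and H2-D1 stretches were identical at 99 of 110 bases, and both held matches to all 4 motifs in the same order. In H2-K1, H2-D1 and B2m the X2 core was followed, after 20 bases, by the Y box read on the opposite strand. That pair at this distance was found in 31 of the 32851 promoter windows of the same table (0.094%), which belong to 27 genes, and this spacing was searched after it had been seen in the 3 genes. Single matches were much more common, since 20.8% of all windows of 300 bases held TGACG, 37.4% CCAAT, 7.5% GAANNGAAA and 5.8% GGGNNTTCC. Promoter windows were listed for 7 of the genes outside chromosome 18. Of these 7, 5 held TGACG, 6 held CCAAT, and H2-K1 and H2-D1 alone matched the other 2 motifs as spelled here. The B2m stretch reads gaaactgaaa and gggaaagtccc, which resemble these 2 motifs but have 1 more base between their parts. They were not counted or marked, so the lack of a match in B2m does not show that such elements are absent. Psmb8 held none of the 4. Tap1 and Psmb9 are read in opposite directions from the 225 bases printed above, which hold 1 X2 core and 1 Y box. These are matches of letters and not measured sites.

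Most of the genes lie together in the MHC on chromosome 17, with Tapbp at chr17:33919478-33929290, H2-K1 at chr17:33996012-34000619, Psmb9 at chr17:34182030-34187330, Tap1 at chr17:34187556-34197225, Psmb8 at chr17:34198195-34201454, Tap2 at chr17:34204479-34216321 and H2-D1 at chr17:35263094-35267497. B2m is at chr2:122147687-122153082 and Nlrc5 at chr8:94434335-94527272, and Cd74 is on chromosome 18. Levels below are log2 signals, for which the lowest value on any array was 2.2 and a level of 5 is used as a mark of clear signal. A gene's level is the mean over its probe sets, of which 18 entered the levels of the 10 genes. In the MBs, 7 of the 10 genes had a mean above 5, against 4 in GNPs and 3 in cerebellum. These counts depend on averaging in probe sets at the floor. H2-D1 was below 5 in all groups, though its probe set above the floor averaged 6.44 in MBs, 5.41 in GNPs and 5.94 in cerebellum. Tap1 was below 5 in GNPs, where its probe set above the floor averaged 5.10. The share of all genes with a group mean above 5 was not computed.

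The arrays were much alike in overall signal, with 42.2% to 43.4% of probe sets above 5. MB_706 stood apart by the log2 difference between its 3′ and 5′ control probe sets, which was 2.93, while the remaining 7 MBs had 0.56 to 0.82 and the 4 normal samples 0.15 to 0.52. Of the 6 mesenchymal markers all were lower in MBs than in GNPs, with a mean level over the list of 3.03 to 6.41 in the MBs, against 6.97 and 7.19 in the GNPs and 4.43 and 4.63 in cerebellum, and MB_630 was the MB at 6.41. Of the 6 granule progenitor markers 5 were above 5 in the GNPs, where Zic1 averaged 13.80, Mki67 9.02, Barhl1 7.97, Pax6 7.43 and Atoh1 5.95. Atoh1 averaged 11.95 in the MBs and 2.76 in cerebellum. The SHH target Gli1 was near the floor in the GNPs, with 9.10 in the MBs, 2.30 in the GNPs and 3.50 in cerebellum. Without MB_706 the same genes passed against GNPs (2 higher, 1 lower) and against cerebellum (4 higher).

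Set against GNPs, the MBs were higher in B2m and Cd74 and lower in Tapbp. Of the 10 genes 2 rose, 1 fell and 7 did not pass the test (limma, Benjamini-Hochberg adjusted p under 0.05 over all 18193 genes). Over all genes, 18.7% rose and 18.6% fell in the same comparison. The groups did not overlap for the same 3 genes, while 21.2% of all genes were higher and 20.5% were lower without overlap. Set against cerebellum, the MBs were higher in B2m, Cd74, Psmb8 and Psmb9, none of the 10 genes fell (also none at an unadjusted p under 0.05 in limma or the methods' t-test), and 6 did not pass, with 22.2% of all genes higher and 21.8% lower. All 8 MBs lay above both cerebellum samples for 7 of the 10 genes, as for 24.3% of all genes. The median difference of the 10 genes was 0.96 from GNPs and 1.50 from cerebellum, against a median of 0 over all genes in both comparisons. Between GNPs and cerebellum only Tapbp passed, and it was higher in GNPs (14.9% of all genes higher, 13.6% lower).

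**Figure D1:**
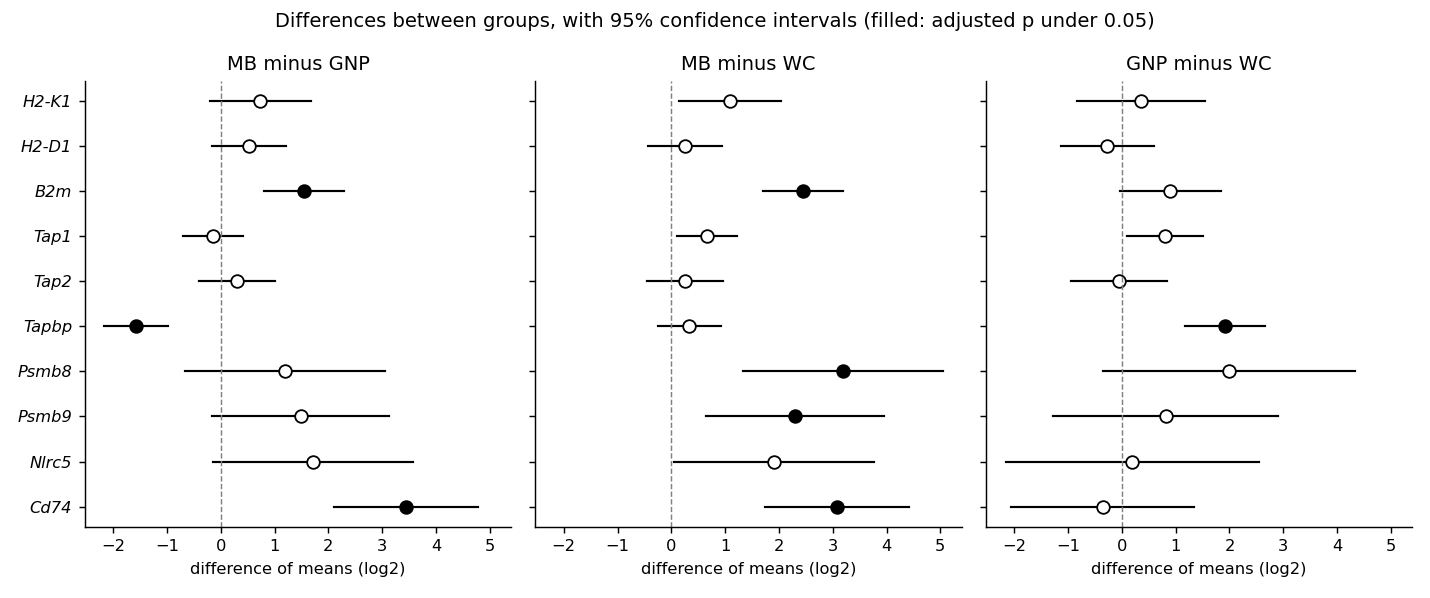
Differences of group means in log2 units for the 10 antigen presentation genes, with 95% confidence intervals from limma, for MB minus GNP, MB minus WC and GNP minus WC. Filled points passed the test: 3 genes in the first comparison, with Tapbp on the negative side, 4 in the second, all positive, and Tapbp in the third.

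GNPs and cerebellum were also joined as 1 normal group. They are different tissues, with 14.9% of all genes higher and 13.6% lower in GNPs, so the 4 samples are not replicates of 1 condition. Against these 4 samples the MBs were higher in B2m, H2-K1, Nlrc5, Psmb8, Psmb9 and Cd74, and none of the 10 genes was lower (limma, 6 of 10 at adjusted p under 0.05, with none lower at an unadjusted p under 0.05 in limma or the methods' t-test). Over all genes, 20.0% were higher and 16.4% lower. H2-K1 and Nlrc5 had passed against neither tissue alone. For B2m and Cd74 every MB lay above every normal sample, which held for 15.5% of all genes. With array weights, which let noisy arrays count for less, only these 2 genes passed, and the calls of H2-K1 and Nlrc5 were each lost in 9 of the 12 fits that left out 1 sample, that of Psmb8 in 6 and that of Psmb9 in 3.

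Neither class I heavy chain passed the test against GNPs or against cerebellum. H2-K1, a classical heavy chain, had its lowest MB level of 6.42 in MB_1207, a median of 7.43 and its highest of 8.23 in MB_794, against 6.36 and 7.05 in the GNPs and 6.38 and 6.32 in cerebellum. All MBs lay above cerebellum, and MB_1207 and MB_1187 lay between the 2 GNP samples. The difference was 0.74 from GNPs (standard error 0.42, limma adjusted p = 0.217) and 1.09 from cerebellum (standard error 0.42, adjusted p = 0.0594). Its 4 probe sets carry the suffix x, which marks probes that may also bind related transcripts, so H2-K1 cannot be held apart from the rest of this family of near-identical genes. The probe sets differed in how far the MBs stood above cerebellum. The brightest had a mean of 9.99 in MBs, against 9.05 in GNPs and 9.90 in cerebellum, and the next 2 had 9.53 and 7.76 in MBs, against 8.34 and 6.87 in GNPs and 7.38 and 5.65 in cerebellum. The last did not reach 3 on any array.

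H2-D1, the other classical heavy chain, was measured by 2 probe sets without such a suffix, of which 1 was at the floor on all arrays and holds the gene's level down. Its level had a lowest value of 3.88 in MB_1207, a median of 4.20 and a highest value of 4.88 in MB_1197, against 3.72 and 3.89 in the GNPs and 4.01 and 4.14 in cerebellum. The MBs overlapped both normal groups, and neither difference passed (0.52 from GNPs, limma adjusted p = 0.239, and 0.25 from cerebellum, adjusted p = 0.658). The probe set above the floor averaged 6.44 in MBs, 5.41 in GNPs and 5.94 in cerebellum. The brightest of the H2-D1 probe sets with the suffix x, left out of the level, averaged 10.73 in MBs, 9.80 in GNPs and 10.89 in cerebellum, so cerebellum was at the MB level there.

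**Figure D2:**
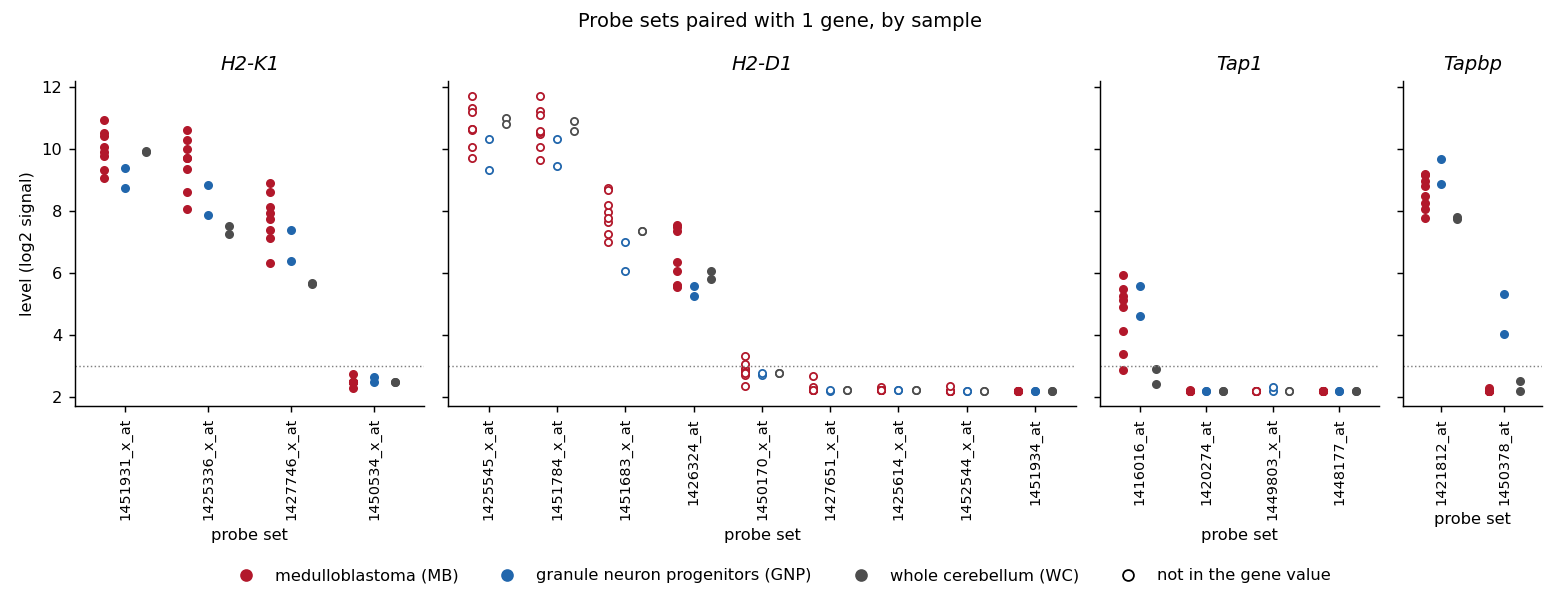
Log2 signal of every probe set paired with H2-K1, H2-D1, Tap1 or Tapbp alone, 1 point per sample, with MB left, GNP in the middle and WC right within each probe set. Open points mark probe sets left out of the gene's level, and the dotted line is at 3. Several probe sets stay near the floor on all arrays, and the 2 Tapbp probe sets differ in how far the GNPs stand above the MBs.

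B2m, the light chain of all class I molecules, had clear signal on all arrays. It had a lowest MB level of 11.63 in MB_1207, a median of 12.37 and a highest of 12.79 in MB_1197, against 10.25 and 11.19 in the GNPs and 9.78 and 9.85 in cerebellum. Every MB lay above every normal sample. The mean was 12.26 ± 0.41 (SD, n = 8) in MBs, 10.72 in GNPs and 9.82 in cerebellum. It was 2.92-fold higher in MBs than in GNPs (log2 difference 1.54, standard error 0.33, limma adjusted p = 0.00412) and 5.44-fold higher than in cerebellum (2.44, adjusted p = 0.000164). Without CGNP_2698 the call against GNPs was lost (1.07, adjusted p = 0.0784). These are bulk samples, in which a change in the number of cells of a type and a change in RNA per cell cannot be told apart.

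Of the 10 genes Tapbp alone fell in MBs against GNPs. Tapbp encodes tapasin, which bridges TAP and the class I heavy chain. Its lowest MB level was 4.98 in MB_1207, its median 5.42 and its highest 5.69 in MB_706, against 6.46 and 7.49 in the GNPs and 5.0 and 5.12 in cerebellum. The MBs lay below both GNP samples and overlapped cerebellum. Tapbp was 2.99-fold lower in MBs than in GNPs (log2 difference -1.58, standard error 0.26, limma adjusted p = 0.000912) and 3.77-fold higher in GNPs than in cerebellum (1.92, adjusted p = 0.00176). The call between GNPs and cerebellum was lost when only these 2 groups were fitted (limma adjusted p = 0.105). One of its probe sets averaged 2.22 in MBs and 4.68 in GNPs, and 2.36 in cerebellum, so it left the floor in GNPs alone. The other averaged 8.58 in MBs, 9.27 in GNPs and 7.76 in cerebellum, and on it alone the fall against GNPs did not pass (-0.70, adjusted p = 0.200).

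Tap1 and Tap2 encode the subunits of the peptide transporter. Tap1 had a lowest MB level of 2.44 in MB_1207, a median of 3.14 and a highest of 3.44 in MB_1197, against 3.01 and 3.33 in the GNPs and 2.28 and 2.44 in cerebellum. MBs and GNPs overlapped, and all MBs lay above cerebellum, MB_1207 by 0.002 only. Its difference from cerebellum was 0.66 (standard error 0.25, limma adjusted p = 0.0563), and that from GNPs was -0.15 (adjusted p = 0.807). Of its 3 probe sets 2 were below 3 on all arrays, and the third averaged 4.64 in MBs, 5.10 in GNPs and 2.68 in cerebellum. Tap2 was near the floor in all groups, with a mean of 2.99 in MBs, 2.69 in GNPs and 2.74 in cerebellum, and neither difference passed.

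Psmb8 and Psmb9, the catalytic subunits that the immunoproteasome uses in place of Psmb5 and Psmb6, had wide ranges over the MBs. Psmb8 had a lowest MB level of 5.07 in MB_1207, a median of 6.81 and a highest of 8.55 in MB_794, against 5.28 and 6.21 in the GNPs and 3.85 and 3.65 in cerebellum. Psmb9 had a lowest MB level of 4.53 in MB_1207, a median of 6.60 and a highest of 7.30 in MB_794, against 3.92 and 5.79 in the GNPs and 3.87 and 4.20 in cerebellum. For both genes all MBs lay above cerebellum, and MB_1207 and MB_1187 lay below or between the GNP samples. Psmb8 was 9.12-fold higher in MBs than in cerebellum (log2 difference 3.19, standard error 0.82, limma adjusted p = 0.00979). Psmb9 was 4.92-fold higher (2.30, standard error 0.74, adjusted p = 0.0284). Against GNPs the differences of 1.19 (95% confidence interval -0.66 to 3.04) and 1.48 (-0.17 to 3.13) did not pass. Leaving out either cerebellum sample ended both calls, with adjusted p = 0.0584 and 0.0723 for Psmb8 and 0.164 and 0.106 for Psmb9 without WC_2646 and WC_2647.

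Of the constitutive counterparts, Psmb5 averaged 10.82 in MBs, 11.47 in GNPs and 10.88 in cerebellum, and it was lower in MBs than in GNPs (-0.65, limma adjusted p = 0.00309). Psmb6 averaged 11.85 in MBs, 12.09 in GNPs and 11.17 in cerebellum, and it was higher in MBs than in cerebellum (0.68, adjusted p = 0.000164). Psmb10, the third subunit of the immunoproteasome, averaged 7.48 in MBs, 7.74 in GNPs and 6.92 in cerebellum. Of the 20 other proteasome genes 5 rose, 3 fell and 12 did not pass in MBs against GNPs, and 13 rose, none fell and 7 did not pass against cerebellum (limma at adjusted p under 0.05). The median difference of the 20 was 0.04 from GNPs and 0.62 from cerebellum. Psme1, a subunit of the interferon-responsive proteasome activator, was higher than in cerebellum (9.95 in MBs, 9.92 in GNPs, 7.97 in cerebellum, adjusted p = 1.16e-05).

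Nlrc5, the transactivator of class I genes, was clear in some MBs and near the floor in others. Its level was 3.42 in MB_630, 3.70 in MB_1207, 4.34 in MB_1224, 4.62 in MB_1187, 5.51 in MB_1206, 6.05 in MB_794, 6.23 in MB_706 and 6.66 in MB_1197, against 3.24 and 3.46 in the GNPs and 3.16 in both cerebellum samples. All but MB_630 lay above every normal sample. The difference was 1.71 from GNPs (95% confidence interval -0.15 to 3.57, limma adjusted p = 0.142) and 1.91 from cerebellum (0.05 to 3.77, adjusted p = 0.0921). Ciita, which does the same for class II genes, stayed at 2.23 in MBs and 2.22 in both normal groups.

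Cd74 encodes the invariant chain of class II molecules. Its level was 5.55 in MB_1224, 6.82 in MB_1207, 6.83 in MB_1187, 6.95 in MB_1197, 7.34 in MB_630, 7.40 in MB_794, 7.65 in MB_706 and 8.54 in MB_1206, against 3.64 and 3.76 in the GNPs and 3.65 and 4.46 in cerebellum. Every MB lay above every normal sample. Cd74 was 10.8-fold higher in MBs than in GNPs (log2 difference 3.44, standard error 0.60, limma adjusted p = 0.00121) and 8.47-fold higher than in cerebellum (3.08, adjusted p = 0.00181). The mean level of 19 microglia and macrophage markers was also above all normal samples in every MB (5.69 to 6.66, against 3.54 and 4.31 in the GNPs and 4.29 and 4.45 in cerebellum), and their part in the Cd74 difference was not tested. Of the class II chains, H2-Eb1 and H2-Aa rose with it, while H2-Ab1 did not pass. H2-Ab1 averaged 3.37 in MBs, 2.54 in GNPs and 2.54 in cerebellum (limma adjusted p = 0.42 and 0.403). H2-Eb1 averaged 6.84 in MBs, 2.64 in GNPs and 3.29 in cerebellum (adjusted p = 0.000484 and 0.00105), and H2-Aa averaged 5.70 in MBs, 2.32 in GNPs and 3.24 in cerebellum (adjusted p = 0.000575 and 0.00316). Of the 10 class II genes measured, 2 rose, 2 fell and 6 did not pass against GNPs, and 2 rose, none fell and 8 did not pass against cerebellum in limma at adjusted p under 0.05. The falls were those of H2-Ea (3.86 in MBs, 4.37 in GNPs, 3.89 in cerebellum) and H2-Eb2 (2.35 in MBs, 2.57 in GNPs, 2.35 in cerebellum), both of low signal.

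**Figure D3:**
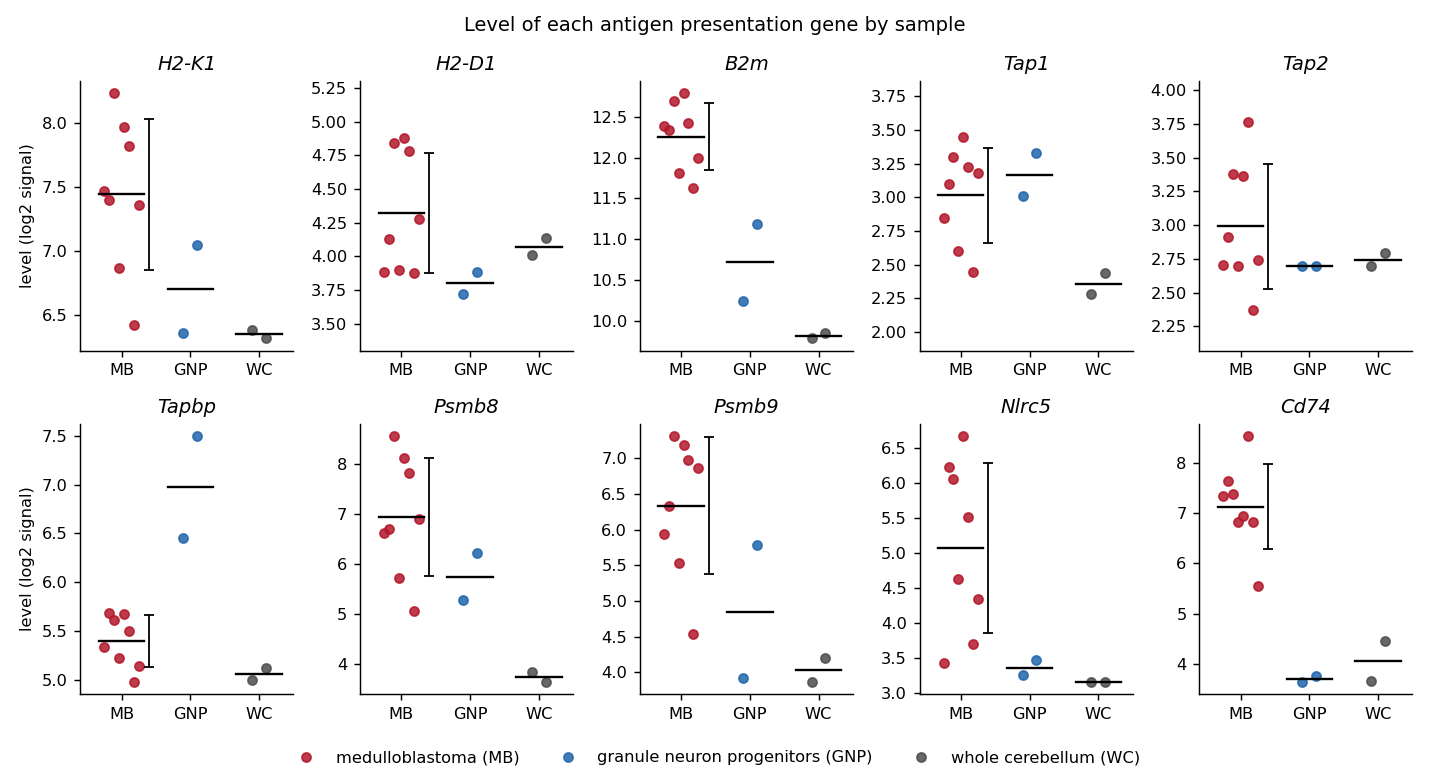
Level of each of the 10 genes in log2 signal, 1 point per sample, for MB (left), GNP and WC (right). Horizontal lines are group means, the bar beside the MBs is ± 1 SD (n = 8), and each panel has its own axis. B2m and Cd74 have all MBs above all normal samples, and for Tapbp the MBs lie below both GNP samples.

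The genes of endosomal processing, which serve class II molecules, went partly the same way. Of 10 measured, 6 rose, 1 fell and 3 did not pass against GNPs, and 6 rose, 2 fell and 2 did not pass against cerebellum (limma at adjusted p under 0.05). Ctss, the cathepsin that trims the invariant chain, averaged 11.46 in MBs, 8.14 in GNPs and 8.86 in cerebellum (adjusted p = 0.000799 and 0.00278). Among the class I-like chains, Cd1d1, which presents lipids, averaged 10.06 in MBs, 8.24 in GNPs and 3.79 in cerebellum, and Mr1, which presents vitamin metabolites, averaged 6.81 in MBs, 3.73 in GNPs and 3.84 in cerebellum. Both rose in both comparisons, and of the 11 genes of this list no other rose. H2-Bl was lower in MBs than in cerebellum (3.27 in MBs, 3.57 in GNPs, 8.28 in cerebellum, limma adjusted p = 1.27e-06). Of the 13 genes of peptide trimming and loading, 4 rose and 5 fell against GNPs, and 6 rose and 4 fell against cerebellum. The peptidase Lap3 averaged 11.47 in MBs, 8.51 in GNPs and 9.44 in cerebellum, and Pdia3, a partner of tapasin, averaged 6.33 in MBs, 7.22 in GNPs and 7.65 in cerebellum.

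Of the 22 regulators of MHC transcription measured, 5 rose and 5 fell against GNPs, and 8 rose and 5 fell against cerebellum (limma at adjusted p under 0.05). Irf1, an interferon-induced activator of class I and immunoproteasome genes, averaged 5.98 in MBs, 4.00 in GNPs and 3.38 in cerebellum (adjusted p = 0.00979 and 0.00162). Rfx5, which binds the X element, averaged 8.23 in MBs, 7.99 in GNPs and 8.17 in cerebellum. Ifngr2, a chain of the interferon gamma receptor, averaged 3.48 in MBs, 5.94 in GNPs and 4.89 in cerebellum and was lower in MBs in both comparisons, as was Stat2, at 3.31 in MBs, 4.93 in GNPs and 5.51 in cerebellum.

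Across the 8 tumors the class I genes kept much the same order. MB_1207 was lowest for 8 of the 10 genes and lowest or second lowest for all 10. Without MB_1207, H2-K1 and Tap1 passed as higher in MBs than in cerebellum (limma adjusted p = 0.0144 and 0.017) and Psmb9 as higher than in GNPs (0.0454). H2-K1 and Tap1 also passed against cerebellum without MB_1187 (limma adjusted p = 0.0498 and 0.0374), and Nlrc5 did without MB_630 (0.0444). MB_1187 was among the 2 lowest for 6 genes. MB_794, MB_1197 and MB_1206 were among the 3 highest for 10, 9 and 8 genes. Cd74, Nlrc5 and Tapbp departed from this order. MB_1224 was lowest for Cd74, MB_630 was lowest for Nlrc5, and for Tapbp MB_706 was highest and MB_1224 second lowest. The spread was wide for 4 of the 10 genes, with an SD of 1.22 for Nlrc5, 1.19 for Psmb8, 0.96 for Psmb9 and 0.85 for Cd74. Over the 9271 genes above 5 in at least 1 MB the median SD was 0.28 and the 90th percentile 0.70. The remaining genes lay below that percentile, from 0.59 for H2-K1 to 0.27 for Tapbp, which was below the median. The span between the lowest and the highest tumor was 11.2-fold for Psmb8 and 9.46-fold for Nlrc5, against 2.24-fold for B2m. The GNP samples differed too. CGNP_2705 was above CGNP_2698 for 9 of the 10 genes and by 0.5 or more for 5, which 389 of the 8338 genes above 5 in at least 1 GNP sample also were.

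**Figure D4:**
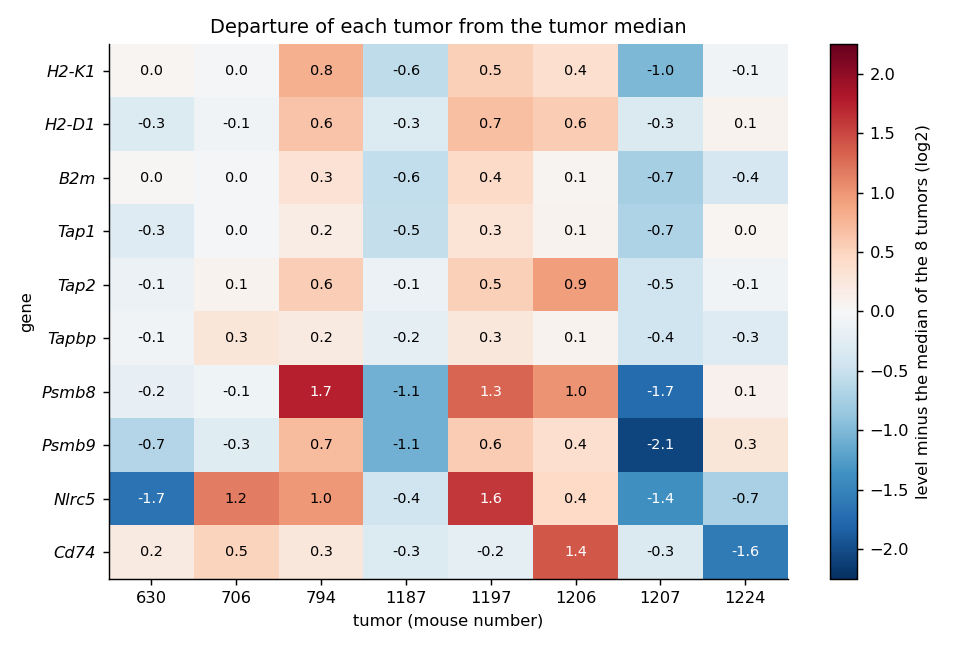
Departure of each MB from the median of the 8 MBs, in log2 units, for the 10 genes (one gene a row, one tumor a column, by mouse number). MB_1207 is below the median for all 10 genes, MB_794 is above it for all 10, and Cd74, Nlrc5 and Tapbp depart from the order of the other genes.

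Over the 8 MBs, the gene nearest to H2-K1 in its pattern was Psmb8 (Pearson r 0.99), among 1863 genes with an SD of at least 0.5. The nearest to Psmb9 was Irf1 (r 0.96), that to B2m was H2-K1 (0.95), that to Cd74 was H2-Eb1 (0.99), that to Tapbp was Lgals3bp (0.99) and that to Nlrc5 was Parp9 (0.93). These values describe 8 tumors normalized together.

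Markers of other cell types and of the interferon response were read in the same samples. The mean level of 19 microglia and macrophage markers was 5.69 to 6.66 in the MBs, against 3.54 and 4.31 in the GNPs and 4.29 and 4.45 in cerebellum. Of the 19, 13 rose, 1 fell and 5 did not pass against GNPs, and 11 rose, 1 fell and 7 did not pass against cerebellum, with a median difference of 2.58 from GNPs and 2.52 from cerebellum. Aif1 averaged 8.19 in MBs, 4.80 in GNPs and 4.91 in cerebellum, and it rose in both comparisons. Csf1r averaged 7.39 in MBs, 4.80 in GNPs and 6.84 in cerebellum, and Cx3cr1 4.86 in MBs, 3.12 in GNPs and 4.32 in cerebellum. P2ry12 averaged 5.10 in MBs, 2.37 in GNPs and 6.22 in cerebellum. Csf1r, Cx3cr1 and P2ry12 rose against GNPs but did not pass against cerebellum. Tmem119, Trem2, Siglech, Itgam and Laptm5 were below 3 in all group means. The falls were those of Laptm5 against GNPs and of Siglech against cerebellum. The 12 lymphocyte markers were below 3 in every group mean, with Cd3e at the floor of 2.2 on all arrays, and none of the 6 dendritic cell markers had a mean above 5 in the MBs, and no marker of these lists rose in either comparison. The mean level of 23 interferon-stimulated genes was 4.21 to 7.90 in the MBs, lowest in MB_1207 and highest in MB_1197, against 4.94 and 6.42 in the GNPs and 3.66 and 3.62 in cerebellum. Of the 23, 2 rose, none fell and 21 did not pass against GNPs, and 12 rose, none fell and 11 did not pass against cerebellum (limma at adjusted p under 0.05), with a median difference of 0.36 from GNPs and 2.55 from cerebellum. The part of these markers in the differences of the 10 genes was not tested.

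**Figure D5:**
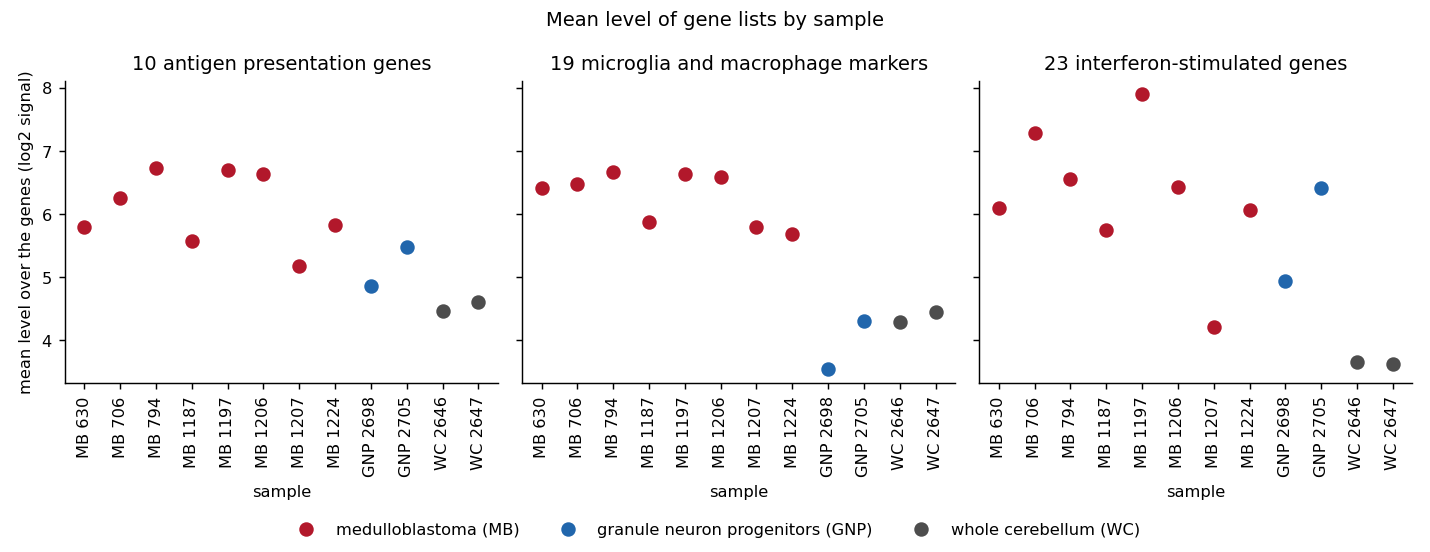
Mean log2 signal in each of the 12 samples, MBs left, of the 10 antigen presentation genes, the 19 microglia and macrophage markers and the 23 interferon-stimulated genes. The microglia list separates all MBs from all normal samples, and the interferon list does not, with MB_1207 at 4.21 below CGNP_2698 at 4.94.

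Each of the 10 genes was also set against both list means over the 8 MBs, which gave 20 correlations with 2-sided exact permutation tests adjusted over the 20. All 20 were positive. How many of all genes correlate as strongly with these lists was not tested, so the counts cannot be read as particular to these 10 genes. With the microglia markers Pearson's r was between 0.62 and 0.92, and 6 of 10 passed. The highest was that of B2m (r = 0.92, exact p = 0.00298, adjusted p = 0.0198, Spearman's rho = 0.88, exact p = 0.00724, adjusted p = 0.0483), which had r = 0.94 without the 2 tumors farthest from the median of the list, MB_1207 and MB_1224. With the interferon-stimulated genes r was between 0.25 and 0.90, and 7 of 10 passed. Tapbp was highest (r = 0.90, exact p = 0.000248, adjusted p = 0.00496, rho = 0.95, exact p = 0.00114, adjusted p = 0.0228), with r = 0.88 without MB_1197 and MB_1207. For the other genes r with the interferon list was 0.29 to 0.76 without these 2 tumors. With the microglia list r without MB_1207 and MB_1224 was 0.47 to 0.94, and it was 0.92 for H2-K1, 0.91 for Tap1, 0.89 for Psmb8 and 0.88 for Psmb9, against 0.82, 0.67, 0.78 and 0.62 over all 8 MBs. None of the 20 passed in the 7 tumors without MB_1207. Cd74 had r = 0.74 with the microglia markers (exact p = 0.0157, adjusted p = 0.0394, rho = 0.74, exact p = 0.0458, adjusted p = 0.0539, and 0.47 without the 2 farthest) and r = 0.25 with the interferon-stimulated genes (exact p and adjusted p = 0.558, rho = 0.62, exact p and adjusted p = 0.115, and 0.46 without the 2 farthest).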

How the data were processed

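Expression had been measured in total RNA of 12 samples (8 MB, 2 GNP, 2 WC), each of its own mouse. The authors used affy and GCRMA in R, and their deposited values are log2 signals, 1 per probe set and array. Versions are not given in the sources used here. GCRMA pulls dim probe sets to a floor, which understates the change of low genes. Precision is limited by how few arrays the normal groups have.

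The platform's annotation pairs 34945 of the 45101 probe sets with 1 gene. Gene levels are means over the probe sets without the suffixes s or x, or of all where none was left (18193 genes). The 10 genes and the lists were chosen with earlier results of these data known. Of the probe sets used, 4 of 18 stayed below 3 on all arrays.

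Group comparisons, 2-sided, used lmFit and eBayes of limma 3.58.1 (R 4.3.3), adjusted over all genes with a threshold of 0.05. A first fit had 3 groups, and a second set MBs against the 4 normal samples together. The study plotted its repair factors that way, having reported no significant difference between the 2 normal tissues for them. Intervals are unadjusted. Beside the 10 genes, the text names the 2 largest rises and falls of a list, genes listed for their role, and the nearest genes in pattern, or part of these. The fit was tested on simulated shifts before use. Alternatives were other rules for probe sets, quantile normalization on top, array weights, a shift to the same median, a robust spread with a trend, a filter on level, fits of 2 groups, the methods' t-test and leaving out each sample. Listed genes with no probe set of their own were not analysed here. Scripts used Python 3.11.15, pandas 2.3.3, SciPy 1.17.1 and matplotlib 3.10.9.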

Additional observations from a re-analysis of the deposited data

How the results depend on the processing

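Over the 10 genes, the 4 comparisons and the alternatives, 873 differences kept their direction and their side of the threshold, 43 no longer passed, 15 came to pass and 7 changed sign. With the probe set of highest signal no gene was lower in MBs than in GNPs (0 against 1), H2-D1 became -0.16 in MBs against cerebellum, H2-K1 -0.85 in GNPs against cerebellum and Tapbp 0.062 in MBs against normal samples. With array weights 2 genes were higher in MBs than in normal samples, against 6. Counts higher than in cerebellum rose from 4 to 6 with array weights (H2-K1 and Tap1 added). They rose to 6 with the filter on level, which tested 7 of the 10 genes (H2-K1 and Nlrc5 added), and to 5 after quantile normalization (Tap1 added). In GNPs against cerebellum 0 genes passed when only these 2 groups were fitted and 0 with the methods' t-test after Benjamini-Hochberg adjustment, against 1. Leaving out 1 sample at a time, Tap1 in MBs against GNPs lay between -0.31 and 0.0099 (without CGNP_2705), Psmb9 in GNPs against cerebellum between -0.12 (without CGNP_2705) and 1.75, and Cd74 in GNPs against cerebellum between -0.76 and 0.049 (without WC_2647). An added alternative, chosen after seeing the data, left out CGNP_2705 and MB_706 together and gave -0.12 for Psmb9 in GNPs against cerebellum. Without 1 sample at a time, the genes higher in MBs numbered 1 to 3 against GNPs, 2 to 6 against cerebellum and 2 to 6 against normal samples, those higher in GNPs than in cerebellum 1 to 2, and the correlations that passed 0 to 12, against 13, with 7 after quantile normalization. Without WC_2646 or WC_2647 the count against cerebellum was 2, without CGNP_2698 that against GNPs was 1, and without MB_1207 0, without MB_1197 2, without MB_1206 6, and without MB_630 or MB_1187 7 correlations passed. Shifting arrays to the same median over genes above 5 removed 0.11 in MBs against GNPs, 0.20 against cerebellum and 0.16 against normal samples, and since it moves genes at the floor too, it called 3246 genes higher and 8784 lower against GNPs, where the deposited scaling called 3403 and 3389. The split was 3563 and 9857 against cerebellum (deposited scaling 4043 and 3966), 3296 and 9573 against normal samples (3644 and 2979), and 2668 and 6439 in GNPs against cerebellum (2703 and 2477). The methods' t-test after adjustment called 1463 higher and 1384 lower in that last comparison. The cause of the other changes was not tested. No paired analysis was possible because the groups share no replicate numbers.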
